A study of Homo sapiens with 3 samples.

Results

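The central domain of 18S ribosomal RNA was examined in eCLIP libraries of METTL5, a methyltransferase of that RNA. The domain was taken as positions 668 to 1199 of the 18S entry of the deposited table, about helices 20 to 27. These are 532 of the 1869 positions of 18S and of 7218 positions in all, and every one of them had a value in each library. The groups were 2 eCLIP libraries from human 293T cells, a line derived from embryonic kidney, labelled as METTL5-HA stable cell lines, and 1 Input library from 293T cells labelled WT. All cells were crosslinked with UV light on the plate, and the lysates were treated with RNase I. In eCLIP the protein is then immunoprecipitated, here through the HA tag, and the RNA that stays attached to it is sequenced. Genotype and library type differ together between the groups and cannot be told apart. The sources used here do not give the promoter of the tagged gene, and a table of rRNAs allows no check of METTL5 levels or of cell markers.

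The small ribosomal subunit is built on 18S, whose central domain forms the platform, the side of the subunit next to the exit channel of the mRNA. Helix 21 lies early in the domain and carries ES6, a long insertion of eukaryotic ribosomes that reaches over the solvent side of the subunit. Helices 22 to 27 follow, among them helices 23 and 24, which face the bound mRNA and the large subunit. METTL5, with its partner TRMT112, places N6-methyladenosine on an adenosine near the 3′ end of 18S, in helix 44, which lies outside this domain. The reads show which stretches of RNA were recovered with the tagged protein, not where it acts.

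Each value was the number of reads that covered a position. Within the domain, rises of eCLIP depth from base to base were followed by falls of like size 75 nt on. The correlation across positions was 0.944 in replicate 1 and 0.909 in replicate 2. In Input, 75 nt also gave the highest correlation, but it was only 0.535. Summed depth divided by 75 was taken as a number of reads in all libraries, and is less certain for Input. The domain then held about 3591 and 769 reads in the eCLIP libraries and 50007 in Input. 5S, the small rRNA of the large subunit, served as the scale, with about 340 reads in eCLIP replicate 1 (exact Poisson 95% interval 304.8 to 378.1), 108 in replicate 2 (88.6 to 130.4) and 859 in Input (803 to 919). The few 5S reads limit how precisely replicate 2 can be scaled. Totals over all 4 rRNAs were about 234323, 92411 and 570446 reads. No library passed 8000 reads at any position. Input lay at or above 4000 reads at 530 of the 532 positions of the domain and at or above 7000 at 398 of them, while eCLIP depth stayed at or below 1392 reads. If Input reads were lost at a ceiling, the true ratios over Input on the 5S scale would be lower than those given.

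The first comparison asked how much of the domain was recovered with METTL5-HA relative to Input. The domain was thinly covered in both eCLIP libraries. On average 506 reads covered a position in eCLIP replicate 1 and 108 in replicate 2, against 7049.9 in Input. Depth ranged over the positions from 80 to 1392 reads in replicate 1, with a median of 460.0. In replicate 2 it ranged from 13 to 255, with a median of 107, and in Input from 3736 to 7708, with a median of 7465. No position of the domain was at 0 in any library. Set against the mean depth of 5S in the same library, the domain stood at 2.40 times in eCLIP replicate 1 and 1.62 times in replicate 2, against 13.2 times in Input. The exact binomial 95% intervals, which cover counting error only and take reads as independent, were 2.15 to 2.69, 1.32 to 2.0 and 12.4 to 14.2. At each of the 532 positions, Input was deeper per 5S than both eCLIP libraries.

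On the log2 scale, replicate 1 stood at -2.46 relative to Input and replicate 2 at -3.03, and their mean was -2.75 ± 0.40 (SD, n = 2). In linear terms the domain was 5.51 and 8.18 times lower in eCLIP than in Input. The counting intervals of the replicates did not overlap, and replicate 1 was the deeper of the pair per 5S at 88.0% of positions. With 2 libraries against 1, the labels can be arranged in 3 ways, so an exact permutation test cannot give a p under 0.333, and none is given for this value.

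The next comparison set the domain against the rest of 18S, which removes the choice of scale. Input depth had a median of 7465 reads in the domain and 6734 in the rest of 18S. A loss of Input reads at a ceiling would thus not have to cancel here, which was not tested. In replicate 1 the log2 ratio of the domain was 0.07 above that of the rest of 18S, and in replicate 2 it was 0.50 below (a difference of -0.50). The mean difference, -0.21 ± 0.41 (SD, n = 2), was smaller than the spread between the replicates. It also depended on how depth was averaged. With medians over positions in place of means, the domain lay above the rest of 18S by 0.50 and 0.48. No difference between the domain as a whole and the rest of 18S was thus shown.

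The share of 18S depth gives the same result in another form. The domain makes up 28.5% of the length of 18S. It held 33.4% of 18S depth in eCLIP replicate 1 (exact binomial 95% interval 32.5% to 34.3%) and 25.2% in replicate 2 (23.7% to 26.8%), against 32.3% in Input (32.1% to 32.5%). The interval of replicate 2 lay below that of Input, and the interval of replicate 1 met it only at its edge.

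Against each other part of 18S, the direction was the same in both replicates. Relative to the last 200 nt, which hold helix 44 and the METTL5 site, the domain was lower in both replicates. The log2 differences were -0.68 and -0.65 (mean -0.66 ± 0.023, SD, n = 2). The log2 ratios of the last 200 nt themselves lay farther apart, at -1.78 and -2.38. In replicate 2 that part held about 306 reads, with depth 0 at 27 of its 200 positions. Relative to the 3′ major domain, positions 1200 to 1669, the differences were -0.25 and -0.94. Relative to the 5′ domain, positions 1 to 667, they were 0.82 and 0.10. The central domain therefore stood between the 5′ domain and the 3′ parts of 18S in both replicates, but against the 5′ and the 3′ major domain the replicates lay farther apart than the mean difference of each. These differences carry no test.

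**Figure D1:**
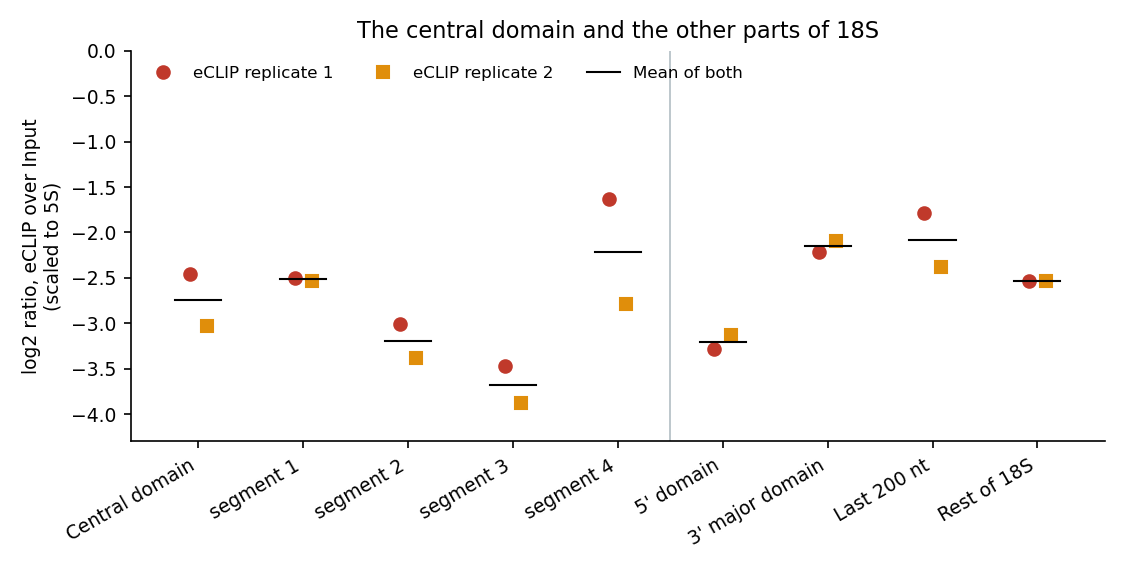
Log2 ratio of eCLIP to Input scaled to 5S (vertical axis) for the central domain, for 4 equal segments of it (133 nt each) and for the other parts of 18S. Circles are eCLIP replicate 1, squares replicate 2 and bars their mean. The 2 replicates lie close together in segment 1, at -2.50 and -2.53, and far apart in segment 4, at -1.63 and -2.79.

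Within the domain, coverage was far from even, and 4 equal segments of 133 nt differed from each other in depth. Segment 1, positions 668 to 800, averaged 519 and 161 reads in the eCLIP replicates and 7407 in Input. Its log2 ratios of -2.50 and -2.53 were nearly the same in both replicates (mean -2.51 ± 0.023, SD, n = 2) and nearly equal to that of the rest of 18S (-2.53 ± 0.0036). Segment 2, 801 to 933, had 359 and 87.4 reads against 7270.1, and log2 ratios of -3.00 and -3.39. Segment 3, 934 to 1066, was the thinnest, with 224 and 53.9 reads against 6302 and log2 ratios of -3.47 and -3.88. It lay below the rest of 18S by log2 differences of -0.94 and -1.35.

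Segment 4, positions 1067 to 1199, was where the replicates parted. It had a mean depth of 923 reads in replicate 1, the highest of the 4 segments there, and 131 in replicate 2, where segment 1 was deeper, against 7219.8 in Input. Its share of all 18S depth was 15.2% in replicate 1 (exact binomial 95% interval 14.6% to 15.9%) and 7.62% in replicate 2 (6.70% to 8.61%), against 8.27% in Input (8.14% to 8.41%). The intervals, which take reads as independent, did not overlap between the replicates, while that of replicate 2 held the Input value. Relative to Input the log2 values were -1.63 and -2.79. Relative to the rest of 18S segment 4 was 0.91 higher in replicate 1 and lower in replicate 2 (a difference of -0.26). A value for the domain that averages the 2 libraries thus rests, in segment 4, on libraries that differ.

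**Figure D2:**
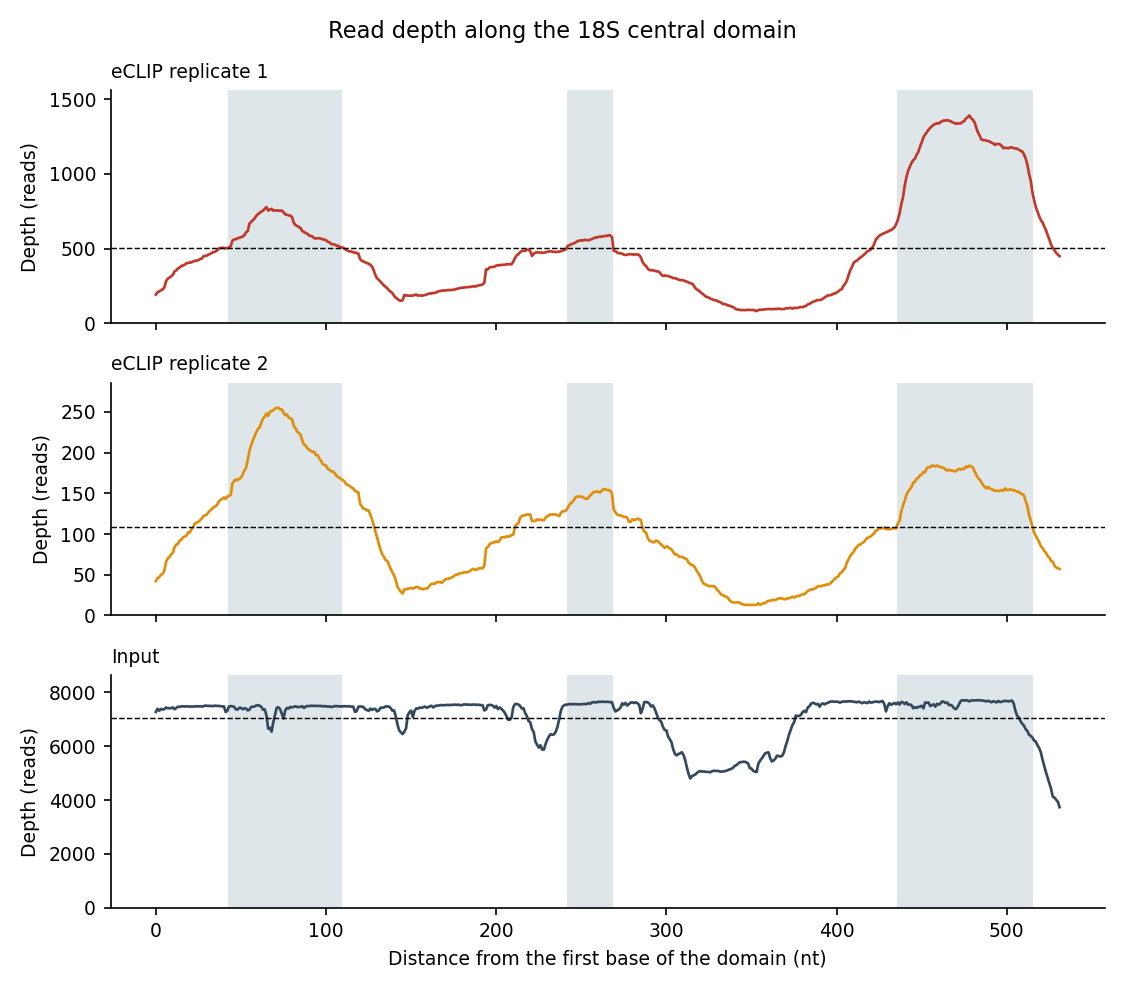
Read depth (vertical axis, reads per position, with its own scale in each panel) against distance from the first base of the domain (position 668), for eCLIP replicates 1 and 2 and Input. Dashed lines are the mean of the domain in each library, and shaded stretches are those above this mean in both eCLIP libraries. Both eCLIP profiles have 3 humps and 2 troughs, and Input is level near 7500 reads except for its dips.

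The profile of both eCLIP libraries had 3 humps separated by 2 troughs. Of the 532 positions, 174 lay above the mean of the domain in both eCLIP libraries and 244 below it in both, while 114 lay on different sides. The positions above the mean formed 3 stretches, from 711 to 777, from 910 to 936 and from 1104 to 1183. These stretches were defined from depth in both replicates at once, so their shared position is given by the definition. Their values describe the profile and are no test. Taken alone, replicate 1 lay above its own mean from 711 to 777, from 910 to 936 and from 1089 to 1194. Replicate 2 lay above its own mean from 690 to 796, from 879 to 953 and from 1104 to 1183.

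The first hump, 67 nt long, had a mean depth of 636 reads in eCLIP replicate 1 and 208 in replicate 2, against 7385 in Input. It peaked at 778 reads at position 733 in replicate 1. In replicate 2 it peaked at 255 reads at positions 739 and 740, the deepest of the domain there. Its log2 ratios to Input were -2.20 and -2.16. It held 15.8% of the domain depth in replicate 1 and 24.2% in replicate 2, against 13.2% in Input.

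The second hump, 27 nt long, was low, with 561 and 147 reads on average in the eCLIP replicates and 7598 in Input. About 90 of these reads in replicate 1 and 21 in replicate 2 have 1 common start, at position 862. In replicate 1 the hump stood above the domain mean of 506 reads by fewer reads than these 90. Depth there fell from 577 reads at position 936 to 486 at 937, where they ended. Whether they are copies of the same molecule is not known. It held 5.62% and 6.90% of the domain depth in the eCLIP replicates and 5.47% in Input.

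The third hump, 80 nt long, was the tallest in replicate 1 only. Its mean depth was 1203 reads in replicate 1 and 162 in replicate 2, against 7485 in Input. It peaked at 1392 reads at position 1146 in replicate 1. In replicate 2 it reached its highest depth, 184 reads, first at position 1124 and last at 1146. It held 35.7% of the domain depth in replicate 1 and 22.5% in replicate 2, against 16.0% in Input. Its height relative to the first hump differed between the replicates.

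The 2 troughs between the humps were taken as stretches below the mean in both eCLIP libraries, so they too were shared by definition. The first ran from 797 to 878, with mean depths of 253 and 57.6 reads in the eCLIP replicates against 7363 in Input. Its lowest values were 149 reads at position 812 in replicate 1 and 27 at position 813 in replicate 2, and Input also had its low point of this stretch at 813, with 6449 reads. The second, from 954 to 1088, was the longest and the deepest, with 208 and 46.6 reads against 6340.0. It is 25.4% of the length of the domain and held 10.4% and 10.9% of its depth in the eCLIP replicates, against 22.8% in Input. The lowest depths of the domain lay there, 80 reads at position 1021 in replicate 1 and 13 in replicate 2. Replicate 2 had this depth at each position from 1014 to 1021.

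Input itself was not level everywhere. It stayed below 7000 reads in 3 stretches of at least 10 nt, from 887 to 904, from 964 to 1043 and from 1176 to 1199. The second of these overlapped the second eCLIP trough, with an Input mean of 5522 reads and a minimum of 4800 at position 982. The third ran to the end of the domain, where depth was 449 and 57 reads in the eCLIP replicates and 3736 in Input at position 1199. The part of these dips in the shape of the ratios was not tested. Of the 14 windows described next, 11 had an Input mean of at least 7000 reads. Over these 11, eCLIP depth ran from 217 to 1314 reads in replicate 1 and from 44.4 to 204 in replicate 2, against 7131 to 7617 in Input, a range that the choice by Input depth and a possible ceiling both narrow.

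**Figure D3:**
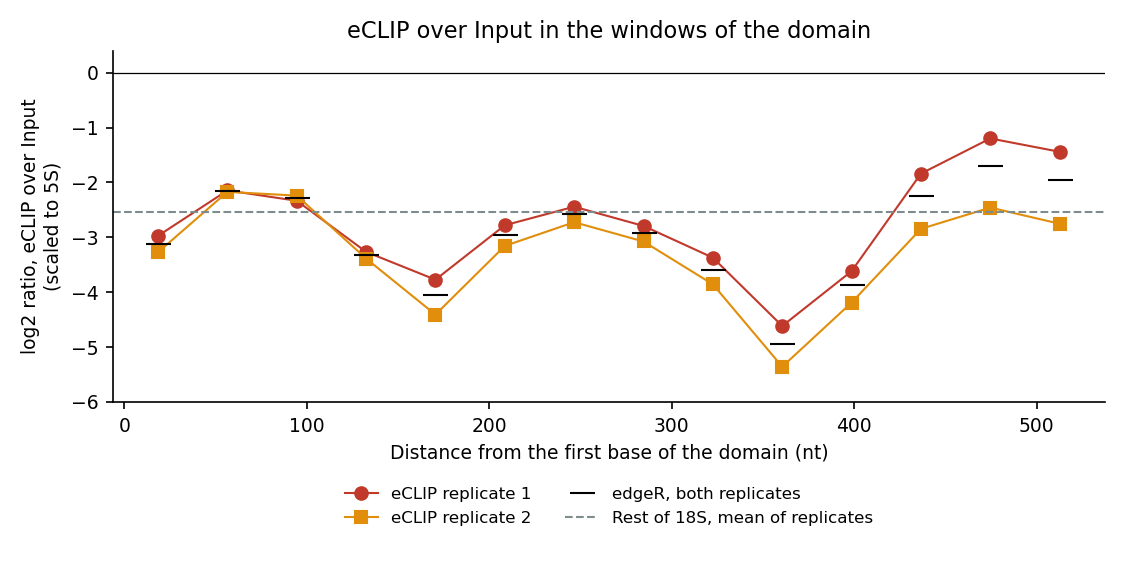
Log2 ratio of eCLIP to Input scaled to 5S (vertical axis) in the 14 windows of 38 nt, at their distance from the first base of the domain. Circles are eCLIP replicate 1, squares replicate 2, short bars the edgeR estimate from both, and the dashed line is the mean of the rest of 18S, -2.53. The ratio is lowest at 1010 to 1047, and the replicates separate in the last 3 windows.

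To test the profile, depth was summed in windows of 38 nt, of which 14 fill the domain, and all 193 windows of the table were fitted together. Scaled to 5S, all 14 windows of the domain passed edgeR's quasi-likelihood test at 0.05 after Benjamini-Hochberg adjustment over the table and were lower in eCLIP than in Input, with adjusted p from 8.55e-12 to 0.000577. The background was high: 35.2% of all windows and 91.7% of the 36 windows of 18S outside the domain were also called lower, so the count is close to that of the rest of 18S. None was higher by edgeR, none at an unadjusted p under 0.05, against 3.63% of all windows. DESeq2 also called none of the 14 higher, against 18.1% of all windows. The median edgeR log2 fold change was -2.94 in the domain, -3.28 in the other windows of 18S and -0.41 over all windows. The fit has 1 residual degree of freedom, takes Input to vary like the eCLIP libraries, and counts a read at each position it covers. Its p-values use a spread pooled over windows, not the gap between the replicates in each window. When each read was counted once, at a first base inferred from the steps in depth, edgeR called 0 windows of the domain (8 of 14 at an unadjusted p under 0.05) and 0 of the table, while DESeq2 called 10 of the 14 lower, against 29.5% of all windows.

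The lowest window of the domain was 1010 to 1047, in the second trough. It had mean depths of 93.5 reads in eCLIP replicate 1 and 17.7 in replicate 2, against 5795 in Input, which is about 47 and 9 reads against 2936. Its edgeR log2 fold change was -4.94 (adjusted p = 8.55e-12), and the replicates had -4.62 and -5.36. Among the 50 windows of 18S its fold change ranked 4 from the lowest. The depth of replicate 2 here was so small that its ratio rests on about 9 reads.

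The next lowest windows were 820 to 857 in the first trough and 1048 to 1085 and 972 to 1009 on either side of the lowest. Window 820 to 857 had 217 and 44.4 reads in the eCLIP replicates against 7498 in Input, with an edgeR log2 fold change of -4.05 (adjusted p = 1.21e-10). With reads counted once its edgeR log2 fold change was -2.56 (adjusted p = 0.123). Window 1048 to 1085 had 245 and 52.2 reads against 7584, with -3.87 (adjusted p = 3.36e-10). With reads counted once this window stood at -1.77 and was called neither by edgeR (adjusted p = 0.206) nor by DESeq2 (adjusted p = 0.0818). Window 972 to 1009 had 199 and 45.1 reads against 5200.2, with -3.59 (adjusted p = 1.10e-07), all by the edgeR test.

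The highest ratios were those of 1124 to 1161, 1162 to 1199, 706 to 743 and 1086 to 1123, all of them still below Input. Window 1124 to 1161, the deepest of the domain in replicate 1 and in Input, had 1314 and 174 reads in the eCLIP replicates against 7617 in Input. Its log2 ratios were -1.20 in replicate 1 and -2.46 in replicate 2, and the edgeR log2 fold change was -1.69 (adjusted p = 0.000524). Window 1162 to 1199 had 914 and 117 reads against 6271, log2 ratios of -1.44 and -2.75, and an edgeR log2 fold change of -1.95 (adjusted p = 0.000577). Neither window passed when the depth at the middle position of each window was used in place of the sum (edgeR log2 fold changes -1.66 and -1.79, adjusted p = 0.135 and 0.132).

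Window 706 to 743, in the first hump, was the deepest of the domain in replicate 2, with 654 and 204 reads against 7315 in Input. Its log2 ratios of -2.15 and -2.17 differed by less than in any other window of the domain, and the edgeR log2 fold change was -2.16 (adjusted p = 4.54e-05). Window 1086 to 1123 had 836 and 132 reads against 7559.8, log2 ratios of -1.84 and -2.85, and an edgeR log2 fold change of -2.26 (adjusted p = 1.78e-05). With reads counted once, DESeq2 called neither this window (log2 fold change -1.64, adjusted p = 0.15) nor 1162 to 1199 (-2.07, adjusted p = 0.125). The other 6 windows had edgeR log2 fold changes from -3.32 to -2.29.

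At the edges the domain ran on without a break. The window before it, 630 to 667, was among the lowest of 18S, with 103 and 25 reads against 6022 and an edgeR log2 fold change of -4.71 (adjusted p = 2.29e-11). The first base of the domain, 668, had 191 and 42 reads against 7271, where position 667 had 180 and 39 against 7098. The window after the domain, 1200 to 1237, had 304 and 40.7 reads against 2553 and a fold change of -2.22 (adjusted p = 0.00285).

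The same fit scaled to the total of 18S asked which windows differed from 18S as a whole. Of the 14 windows, 3 were lower at an adjusted p under 0.05 (edgeR), 1 was higher and 10 did not pass. Over all windows 13% were lower and 68.9% higher, 123 of these 133 on 28S, and over the 18S windows outside the domain 41.7% were lower and 13.9% higher. The lower windows were 820 to 857 (log2 fold change -1.48, adjusted p = 0.00453), 1010 to 1047 (-2.36, adjusted p = 3.23e-05) and 1048 to 1085 (-1.30, adjusted p = 0.0116). Both replicates lay below 18S in each of them, by -1.26 and -1.73, by -2.10 and -2.68, and by -1.10 and -1.51 on the log2 scale. With DESeq2 6 windows were lower, against 17.1% of all windows. With reads counted once edgeR called none (2 at an unadjusted p under 0.05), and 2 of the 3 windows turned direction, 820 to 857 to 0.033 and 1048 to 1085 to 0.80.

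The higher window was 1124 to 1161, with a log2 fold change of 0.87 over 18S (edgeR adjusted p = 0.0473). It stood 1.31 above 18S in replicate 1 and 0.22 in replicate 2. The call was not kept with DESeq2 (0.87, adjusted p = 0.0726) or with the 18S windows fitted alone (0.87, edgeR adjusted p = 0.35). DESeq2 instead called 706 to 743 higher (0.44, adjusted p = 0.0301), where the replicates lay 0.37 and 0.50 above 18S and edgeR made no call (adjusted p = 0.345). No window of the domain was thus called above 18S by both tools.

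**Figure D4:**
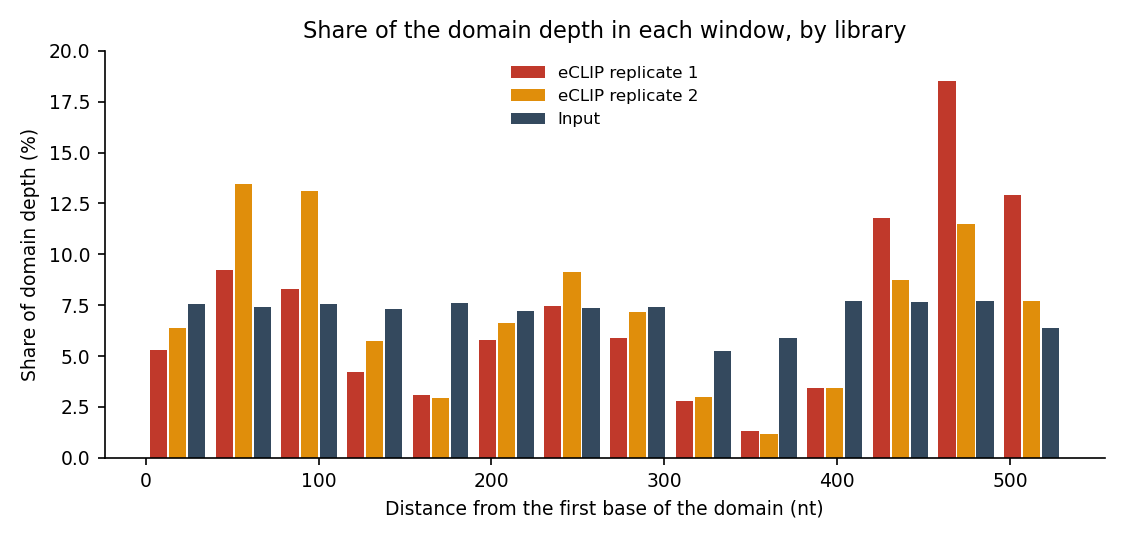
Share of the domain depth (vertical axis, percent) held by each window of 38 nt, at its distance from the first base of the domain, in eCLIP replicate 1, eCLIP replicate 2 and Input. Input shares lie between 5.27% and 7.72%, a range that a possible ceiling would narrow. The window from 1124 to 1161 holds 18.5% in replicate 1 and 11.5% in replicate 2.

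The replicates ordered the windows alike but weighted them differently. Across the 14 windows, Pearson's r between the depths of the eCLIP replicates was 0.73 and Spearman's rho 0.895, given as a description, since windows share reads with their neighbours and a library. Over the 36 windows of 18S outside the domain the values were 0.925 and 0.961. Depth in Input correlated with that in replicates 1 and 2 by r = 0.334 and 0.492 in the domain. A possible ceiling would narrow the range of Input depth, and its part in these correlations was not tested. In the last 3 windows, from 1086 to 1199, replicate 1 was 2.01, 2.39 and 2.48 times as deep per 5S as replicate 2. In the other 11 windows this ratio lay between 0.937 and 1.67. The window from 1124 to 1161 held 18.5% of the domain depth in replicate 1 and 11.5% in replicate 2, against 7.72% in Input, and that from 744 to 781 held 8.27% and 13.1%, against 7.57%.

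The lowest window was alike in both eCLIP libraries on this measure. Window 1010 to 1047 held 1.32% and 1.17% of the domain depth in replicates 1 and 2, against 5.87% in Input.

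The changes in depth from base to base correlated between the eCLIP libraries over the 532 positions (Pearson's r = 0.811, Spearman's rho = 0.798, a description over positions that share reads). The steps named here were ranked by the sum of both replicates, each relative to its mean depth, which favours steps that are large in both. The largest step up by this rank was at position 862, where depth reached 360 reads in eCLIP replicate 1 after 270 at position 861, and 82 in replicate 2 after 61. The steps of 90 and 21 reads equal 17.8% and 19.4% of the mean depth of the domain and 2.51% and 2.73% of its reads. Input stepped by 28 reads there, 0.397% of its mean. The largest step down by the same rank followed 75 nt later, at position 937, where depth dropped by 91 and 20 reads, and Input by 202. The pair marks the first and last base of about 90 and 21 reads with 1 common start, which lie across the second hump.

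Other steps came in groups. Replicate 1 stepped up by 60 reads at position 1106 and by 78 at 1108, and replicate 2 by 12 and 6. Depth dropped again at 1181 and 1183, by 61 and 78 reads in replicate 1 and by 11 and 7 in replicate 2. At positions 1182 and 1184 it dropped by 47 and 54 in replicate 1 and by 7 and 8 in replicate 2. These steps came on top of a climb towards the third hump. It ran from 249 reads at position 1072 to 664 at 1103 in replicate 1 and from 56 to 107 in replicate 2. The largest step of this climb in replicate 1 was 37 reads at position 1075, where replicate 2 stepped up by 4. Steps up of 43, 38 and 50 reads in replicate 1 and of 11, 14 and 11 in replicate 2 lay at positions 674, 713 and 723. Position 674 lies before the first hump, and the other positions lie in it. The step at 713 was matched at 788, where depth dropped by 36 and 14 reads. Whether reads with 1 common start are copies of the same molecule cannot be read from the table.

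**Figure D5:**
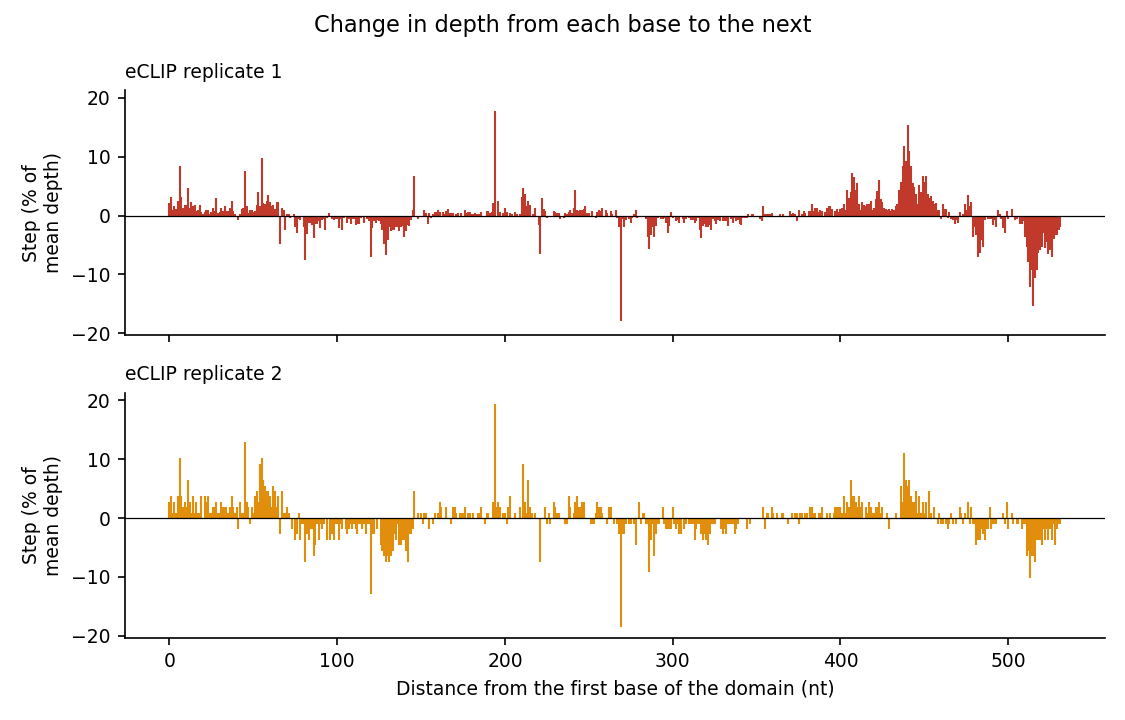
Change in depth from each base to the next (vertical axis, percent of the mean depth of the domain in that library) against distance from the first base of the domain, in eCLIP replicates 1 and 2. The tallest pair of steps, up at position 862 and down at 937, has the same size in both replicates relative to the mean, 17.8% and 19.4% up.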

How the data were processed

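The authors deposited 1 table of unscaled counts by position along 4 rRNAs in 3 libraries, per the file headers. STAR (an aligner) and hg19 are listed, per the submitters' processing notes, with no version and no role. The sources used here do not give how the table was made or whether the random tag of the adapter served to remove duplicates. The IP columns were matched to the eCLIP samples by their numbers, 1 and 2. The members and all lists and settings were chosen with earlier results of these data known.

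Positions are counted from 1 along 18S. All 5 annotated 18S genes in a GRCh38 table (RNA18SN1 to RNA18SN5, 3 on chromosome 21, 1 on 22 and 1 not placed) are as long as 18S in the table, 1869 nt. The copies are near-identical, so reads cannot be assigned to one, and no genomic coordinates are given.

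Counts were read as depth. Ratios used mean depth over the mean depth of 5S. Windows of 38 nt started on 18S from the first base of the domain and elsewhere from base 1. Log2 ratios per replicate in windows used a pseudocount of 1. edgeR 4.0.16 (R 4.3.3) compared eCLIP with Input by the quasi-likelihood test on 3 libraries, with the 5S or 18S total as library size, filterByExpr and Benjamini-Hochberg adjustment over all windows at 0.05. The prior degrees of freedom came out infinite, which gives each window the trend's dispersion. DESeq2 1.42.0 was the other tool. The labels do not say whether the eCLIP libraries are from separate cultures. The only spread behind the p-values is that between these libraries, which may be technical. In edgeR it enters through the trend over windows, so the replicate gap of a single window does not set its p. Intervals are on depth divided by 75 and cover counting error only. They take reads as independent, and would be too narrow if reads with 1 common start are copies of the same molecule. The windows named are the 4 with the highest and the 4 with the lowest edgeR log2 fold change and the deepest of each library. The steps named are the 6 up and the 6 down with the largest sum over both eCLIP replicates of step divided by mean depth of the domain. The edge windows, and the window from 744 to 781, were chosen after their values were seen.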

Additional observations from a re-analysis of the deposited data

How the results depend on the processing

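The log2 ratio of the domain, -2.75 scaled to 5S, was -3.36 with the 28S total and -0.15 with the 18S total, a scale that compares the domain with 18S itself. It turned to 2.40 with the 5.8S total, a scale added after seeing the data that sets the domain against 5.8S, which had only about 18 and 4 eCLIP reads. It lay between -2.96 and -2.40 with TMM, library totals, medians, other bounds or only the 2 positions with Input under 4000, and was -3.03 or -2.46 without eCLIP replicate 1 or 2. The difference from the rest of 18S, -0.21, turned to 0.49 with medians, 0.28 with positions of Input under 4000 only, and 0.074 without eCLIP replicate 2 (-0.50 without replicate 1). The cause was not tested. All 14 windows of the domain were lower with TMM, library totals, DESeq2 size factors and the 28S total, where 30.6% to 34.2% of all windows were. They were 7 of 7 with windows of 76 nt (35.1% of all), 28 of 28 with 19 nt (38.1%), and 12 of 14 with the middle position (30.1%). Settings added after seeing the data gave 6 of 7 (22.7% of all) and 7 of 7 (36.1%) lower by edgeR and DESeq2 with the middle position of windows of 76 nt, where no read is counted more than once, and 0 by edgeR with reads counted once at an inferred first base, a method that gave counts below 0 at 14.8% and 21.2% of domain positions in the eCLIP libraries. Against 18S, 3 lower windows became 6 with DESeq2, 1 of 7 with 76 nt (11.3% of all), 7 of 28 with 19 nt (11.8%) and 0 with inferred first bases. The 1 higher window became 0 with the middle of 76 nt (0 also at an unadjusted p under 0.05), with inferred first bases and with 18S windows alone. With inferred first bases 2 windows changed sign against 18S, 820 to 857 (0.033) and 1048 to 1085 (0.80). Of 96 results for named windows on the 5S scale 83 kept their call and none changed direction. On the 18S scale only 3 lower and 1 higher of the named windows were called in the main fit. There 38 of 48 results kept the same outcome, called or not called, while 4 lost a call and 4 gained one. The other 2 changed direction and lost their call as well. Without 1 eCLIP replicate no residual degree of freedom is left, so the window tests have no such value. No paired analysis was possible because the single Input library carries no number to pair.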
